A study of Canis lupus familiaris with 33 samples.

Results

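Canine chromosome 13 carries the block of genes that lies on the long arm of chromosome 8 (8q) in human, and 41 of its genes were listed because this part of the chromosome is often gained in canine bladder cancer. A gene was a member if its symbol was on that list and had a row in the TMM-normalized expression table. Of the 41 symbols, 39 had such a row among the 25096 genes of the table, and MAL2 and NSMCE2 did not. All 39 were placed on chromosome 13 by a RefSeq gene table of another canine assembly (UU_Cfam_GSD_1.0), which was used only for chromosome and gene order. In that order they run from RRM2B to VPS28, a stretch of 197 of the 403 protein-coding genes of the chromosome. DNA copy number was not measured, so the values below describe RNA and not gain.

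RNA from 29 canine invasive urothelial carcinomas (iUC) and 4 normal bladder samples was sequenced in 1 batch after removal of ribosomal RNA. Each tumor was high grade and came from a different dog that had received no treatment. The study describes the tumors as cystoscopic biopsies, and in another place the majority of them. The normals (A, B, C and D) were the dissected urothelial layer of dogs euthanized for reasons other than bladder disease. No genotype, drug or time course was part of the design, and the groups differ in how tissue was taken as well as in diagnosis.

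A gain of a chromosome arm adds copies of every gene on it, and the RNA of many, but not all, genes follows their copy number. Human 8q is among the arms most often gained in epithelial cancers, including bladder cancer, and MYC, a transcription factor that drives growth and ribosome production, is its best known oncogene. Its neighbors have unrelated jobs: RAD21 is a subunit of cohesin, the ring that holds sister chromatids together, and PTK2 encodes focal adhesion kinase, which signals from integrins.

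The table holds log2 normalized values from which the gene's own median across the 33 samples was taken away, so 0 is the middle sample of a gene and 1 is a 2-fold step. Total counts per sample cannot be read from these values, and the precision is taken from the spread between samples. Of the 25096 rows, 11744 had a symbol and a chromosome, and these run through chromosomes 1 to 26, apart from 15 placed elsewhere. The remaining rows have no chromosome here, and "all genes" means all tested rows, placed or not. The last line of the table is incomplete, so the table may be cut short, and the shares over all genes and the order of chromosomes hold for these rows only. Low genes share a lowest value: 755 to 1019 genes were at it in a normal against 3699 to 8175 in a tumor, and 38 of the 39 members never were (KHDRBS3 was, in 2 tumors). Smooth muscle markers were lower in the tumors for 7 of 7 measured genes (median log2 difference -5.97), with a score, the mean z over the list, of 3.6 to 5.12 in the normals and -1.19 to 2.82 in the tumors. The labelled normal urothelial cells thus had a higher smooth muscle marker score than any tumor. Fibroblast markers fell for 4 of 5, proliferation markers rose for 6 of 6 (median 2.85; score -4.24 to -2.93 in the normals and -2.7 to 1.73 in the tumors), urothelial markers rose for 5 of 8 and fell for 1, and none of 4 endothelial or 5 T cell markers was called. Of 4 myeloid markers, 1 rose. In such bulk samples fewer cells of a type and less RNA per cell cannot be told apart. The part of these lists in the results below was not tested in the comparison with the normals, and was tested among the tumors only where a covariate is named.

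Most of the members were higher in tumors. Of the 39 members, 30 rose, 1 fell (KHDRBS3) and 8 were not called (limma, Benjamini-Hochberg adjusted p of at most 0.05 over 24471 genes). Of all genes, 22.9% rose and 48.1% fell, so a share of 76.9% among the members lay above that background. A closer background was made of the 10806 named and placed genes whose median lay above the shared lowest value, of which 40.7% rose. The median log2 difference was 1.25 for the members, 0.34 for those 10806 genes and -0.84 for all genes. With a 2-fold change also required, 22 members rose and 1 fell, against 10.7% of all genes and 18.1% of the expressed placed genes that rose.

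In 23 of the 39 members every tumor lay above every normal. That was so for 7.63% of all genes and for 14.8% of the expressed placed genes. The size of the shift depends on the scaling: in the DESeq-normalized table the members' median difference was 0.95, with 27 higher and 2 lower, and in TMM values centred on named genes of other chromosomes it was 0.96, again with 27 and 2. The expressed placed genes moved down with them, from a median of 0.34 to 0.05 and 0.06, and 27.1% and 27.9% of them rose. RRM2B, EIF3H and TATDN1 were not called in either of those scalings, and ZHX2 was called lower in both.

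**Figure D1:**
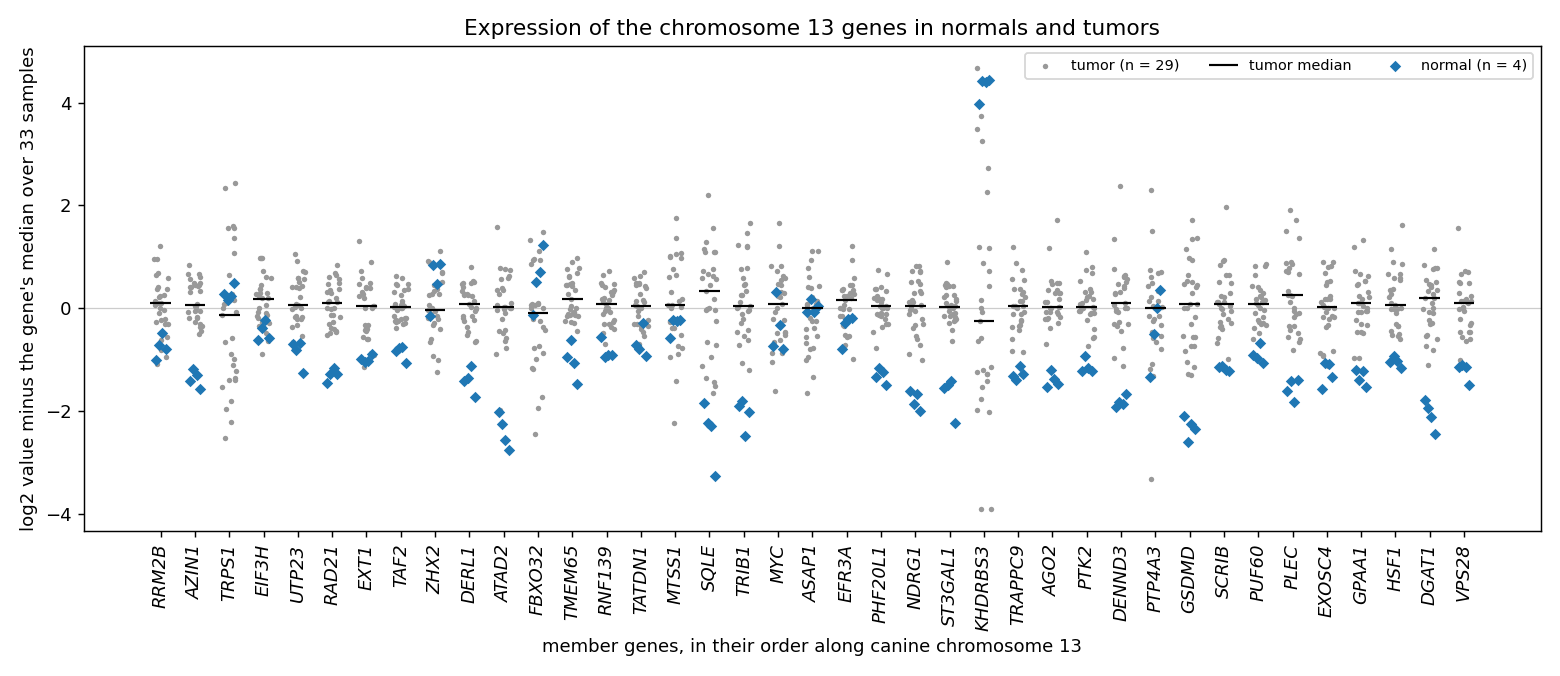
Expression of the 39 members in their order along the chromosome. The y axis is the log2 value minus the median of each gene over 33 samples, grey points are the 29 tumors, black lines their medians and blue diamonds the 4 normals. In 23 genes all blue diamonds lie below all grey points; in others, such as TRPS1, ZHX2, FBXO32 and ASAP1, they lie among them, and in KHDRBS3 they lie between 3.98 and 4.44, above all but 1 tumor.

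All 6 genes of lipid, polyamine, glycan and GPI-anchor synthesis were higher in tumors, with a median log2 difference of 1.62. SQLE, squalene epoxidase of the cholesterol pathway, had the largest rise of any member. It measured -1.83, -2.22, -2.3 and -3.27 in normals A to D, and from -1.64 through a median of 0.34 to 2.2 in the tumors. No tumor overlapped the normals, although normal D lay well below the other normals and the tumors spread widely. The difference was 2.57 (SE 0.5, adjusted p = 3.44e-05).

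DGAT1, which makes triacylglycerol from diacylglycerol, measured -1.78, -1.94, -2.12 and -2.43 in the normals and -1.1, 0.2 and 1.16 as the lowest, median and highest tumor. The groups were fully separate, and the difference was 2.17 (SE 0.29, adjusted p = 3.8e-08). The other genes of this group rose by less. ST3GAL1, a sialyltransferase, differed by 1.74 (SE 0.19), AZIN1, the antizyme inhibitor that keeps ornithine decarboxylase stable, by 1.51 (SE 0.2), GPAA1, a subunit of the GPI transamidase, by 1.45 (SE 0.27), and EXT1, a heparan sulfate polymerase, by 0.98 (SE 0.29). EXT1 was the one gene of the group with overlap: 27 of 29 tumors exceeded every normal and 1 lay below all of them.

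Transcription and chromatin genes split, with 4 of 7 higher and 3 not called (median difference 0.91). ATAD2, a bromodomain ATPase that reads acetylated histones, measured -2.01, -2.25, -2.56 and -2.76 in the normals and -1.98, 0.03 and 1.58 as the lowest, median and highest tumor. Tumor 2 was just above normal A and all the others were further away. The difference was 2.42 (SE 0.34, adjusted p = 1.44e-07). PHF20L1, a reader of methylated lysine, rose by 1.35 (SE 0.18), HSF1, the heat shock transcription factor, by 1.22 (SE 0.28), and TAF2, a subunit of TFIID, by 0.91 (SE 0.16), each with all 29 tumors above all normals.

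MYC itself was not called. It measured -0.74, 0.32, -0.33 and -0.79 in the normals, and the tumors ran from -1.6 through 0.09 to 1.66. Only 10 tumors exceeded every normal, 4 lay below all of them and the rest overlapped. Its difference was 0.42 (SE 0.37, adjusted p = 0.31). TRPS1, a GATA-type repressor that marks some epithelia, measured 0.27, 0.16, 0.23 and 0.49 in the normals and -2.52, -0.13 and 2.44 as the lowest, median and highest tumor. Its tumors thus lay on both sides of tightly grouped normals, 8 above all of them and 19 below, and its difference was -0.52 (SE 0.67, adjusted p = 0.497). ZHX2, a homeobox repressor, had a difference of -0.49 (SE 0.3, adjusted p = 0.147).

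Both genome maintenance genes with a row were higher. RAD21 measured -1.46, -1.27, -1.17 and -1.28 in the normals and -0.52, 0.11 and 0.85 as the lowest, median and highest tumor. All 29 tumors exceeded all normals by a clear gap, and the difference was 1.38 (SE 0.21, adjusted p = 6.04e-07). RRM2B, a ribonucleotide reductase subunit that supplies nucleotides for DNA repair, rose by 0.82 (SE 0.29, adjusted p = 0.0115), with 24 of 29 tumors above all normals. Its difference was 0.52 (adjusted p = 0.106) in the DESeq-normalized table.

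RNA processing and translation held the largest fall. KHDRBS3, an RNA-binding protein that regulates splicing, measured 3.98, 4.43, 4.41 and 4.44 in the normals, and the tumors ran from -3.9 through -0.24 to 4.67. In 28 of 29 tumors it was below all normals, 2 tumors were at its shared lowest value, and 1 tumor was as high as the normals. The difference was -4.29 (SE 1.05, adjusted p = 0.000531), and its SD over the tumors, 2.15, was the largest of the members. The normals' higher smooth muscle score moved with it, and the part of that tissue in this fall was not tested.

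The other 5 genes of this group rose. AGO2, the slicer of RNA interference, differed by 1.55 (SE 0.24), EXOSC4, an RNA exosome subunit, by 1.28 (SE 0.29), PUF60, a splicing factor, by 0.98 (SE 0.22), and UTP23, a ribosome biogenesis factor, by 0.98 (SE 0.25). EIF3H, a subunit of the translation initiation factor eIF3, was the weakest call at 0.58 (SE 0.25, adjusted p = 0.0365). The EIF3H call was lost without normal A, B or D, with adjusted p of 0.104, 0.0609 and 0.0974.

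Of the 4 genes of protein degradation, 3 rose. TRIB1, a pseudokinase that brings targets to the COP1 ubiquitin ligase, measured -1.9, -1.81, -2.49 and -2.02 in the normals and -1.2, 0.04 and 1.65 as the lowest, median and highest tumor. The groups did not overlap, and the difference was 2.23 (SE 0.37, adjusted p = 2.25e-06). DERL1, which helps move misfolded proteins out of the endoplasmic reticulum, rose by 1.47 (SE 0.21), and RNF139, a membrane ubiquitin ligase, by 0.9 (SE 0.19). FBXO32, the muscle ubiquitin ligase atrogin-1, had a difference of -0.77 (SE 0.49, adjusted p = 0.16) and was not called.

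Adhesion, polarity and cytoskeleton genes were divided evenly, with 3 higher and 3 not called (median 0.81). PTK2 measured -1.22, -0.92, -1.17 and -1.23 in the normals and -0.74, 0.03 and 1.09 as the lowest, median and highest tumor. All 29 tumors were above all normals, and the difference was 1.23 (SE 0.22, adjusted p = 6.42e-06). PLEC, the cytoskeletal linker plectin, measured -1.61, -1.42, -1.82 and -1.39 in the normals and -0.81, 0.25 and 1.92 as the lowest, median and highest tumor.

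PLEC too was separate in all 29 tumors, and its difference was 1.86 (SE 0.37, adjusted p = 3.94e-05). SCRIB, an apical-basal polarity protein, rose by 1.31 (SE 0.3). MTSS1, an actin-bundling protein, had a difference of 0.39 (adjusted p = 0.425), ASAP1, an ARF GTPase-activating protein, of -0.13 (adjusted p = 0.74), and PTP4A3, a phosphatase linked to cell migration, of 0.28 (adjusted p = 0.629). The sign of PTP4A3 turned without normal A, at -0.05, and in both other scalings.

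Membrane trafficking genes rose in 3 of 4 cases (median 1.29). DENND3, an exchange factor for RAB12, measured -1.91, -1.82, -1.86 and -1.67 in the normals and -1.13, 0.11 and 2.39 as the lowest, median and highest tumor. Tumor 12 stood highest and no tumor reached down to the normals. The difference was 1.99 (SE 0.34, adjusted p = 4.77e-06). TRAPPC9, a subunit of a vesicle tethering complex, rose by 1.33 (SE 0.24) and VPS28, of the ESCRT-I sorting complex, by 1.26 (SE 0.27), while EFR3A, which anchors a lipid kinase at the plasma membrane, had a difference of 0.44 (adjusted p = 0.111).

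All 4 remaining genes rose. GSDMD, gasdermin D, the pore former of pyroptosis, measured -2.09, -2.6, -2.24 and -2.35 in the normals and -1.3, 0.09 and 1.72 as the lowest, median and highest tumor, with a difference of 2.39 (SE 0.42, adjusted p = 6.62e-06). NDRG1, a stress response gene induced by low oxygen, measured -1.6, -1.85, -1.67 and -2.0 in the normals and -1.0, 0.05 and 0.83 as the lowest, median and highest tumor, with a difference of 1.84 (SE 0.26, adjusted p = 1.77e-07). Neither gene overlapped between the groups. TMEM65, a mitochondrial membrane protein, rose by 1.25 (SE 0.22) and TATDN1, a putative nuclease, by 0.71 (SE 0.22).

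Other chromosome 13 genes rose in shares closer to the background than the members did. Between the first and last member lay 104 other tested genes, of which 47 rose and 30 fell (median 0.46). Outside that stretch, 70 of 145 chromosome 13 genes rose and 44 fell (median 0.6). Among those with a median above the lowest value, 47.0% of 100 genes between the members and 54.3% of 129 outside rose, against the 40.7% of all such placed genes. With DESeq normalization, 37 genes between the members and 61 outside rose, and with the centring on named genes 38 and 62 did. The share of all 288 chromosome 13 genes, members included, that rose was thus 51.0% in the main scaling and 43.4% and 44.1% in the others. Of the expressed placed genes, 40.7% rose in the main scaling and 27.1% and 27.9% in the others. The members' own share was higher than these shares, but they are a chosen list in which 38 of 39 genes were never at a shared lowest value. The difference in share was not tested.

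Large changes in both directions occurred among the neighbors. LYPD2, a Ly6-family gene, rose by 5.37 (SE 0.94, adjusted p = 6.2e-06), TMPRSS11E, an epithelial serine protease, by 3.75 (SE 0.95, adjusted p = 0.00075), and LY6E, another Ly6-family gene, by 3.38 (SE 0.99, adjusted p = 0.00316). KCNV1, a potassium channel subunit, had a difference of -6.91 (SE 0.72), EPHA5, an ephrin receptor, of -6.56 (SE 0.83), and the casein gene CSN2 of -6.45 (SE 0.46). KCNV1 and CSN2 were at their lowest value in 13 and 20 samples, so their differences are fitted to many values held at a floor and are not exact sizes. EPHA5 was at its lowest value in 2 samples, so a floor touches its difference less.

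Chromosome 13 had the highest median difference of 26 chromosomes, 0.78 over 268 expressed named genes with the members among them, and the highest share of rising genes, 54.9%. Chromosome 9 followed with 0.59 and 50.9%. Chromosome 19 was lowest, with -0.35 and 11.2%. These are descriptions of whole chromosomes, with no test, and other chromosomes of the dog were not analysed here.

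**Figure D2:**
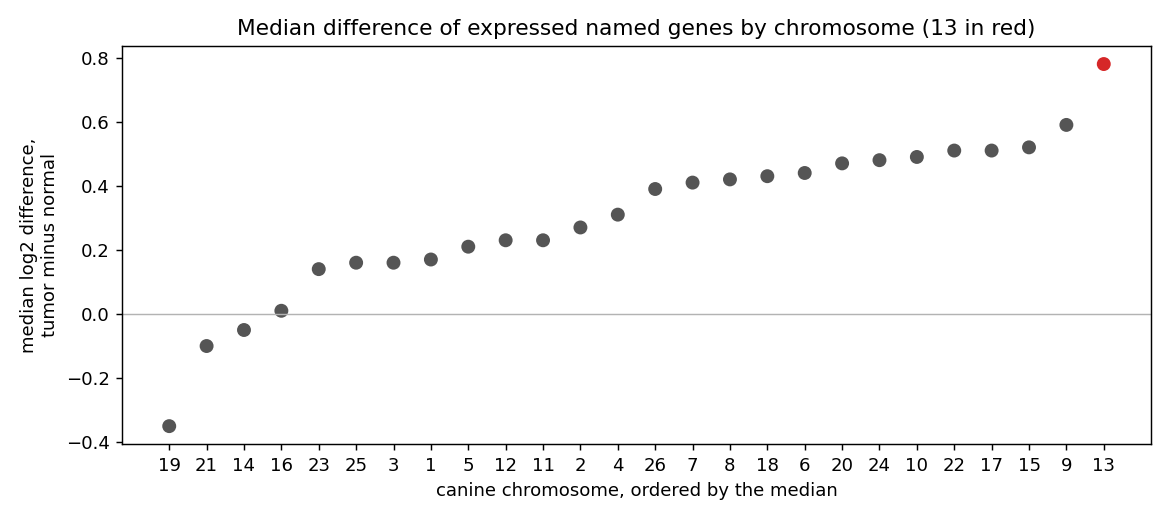
Median log2 difference, tumor minus normal, of the expressed named genes of each canine chromosome with at least 20 tested genes, ordered by the median (y axis in log2 units, no error shown). Chromosome 13, in red, is highest at 0.78 and chromosome 19 lowest at -0.35.

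The level of the members as a set varied from tumor to tumor. Their median in a sample was -1.15, -1.04, -1.08 and -1.26 in normals A to D, and from -0.47 in tumor 3 through 0.03 to 0.84 in tumor 12. Every tumor was above every normal, as the direction of most members sets. The next highest tumors were 9 at 0.6, 1 at 0.58, 7 at 0.46 and Mi at 0.45, and tumor 2 was nearly as low as tumor 3, at -0.45.

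Expressed genes of other chromosomes had medians of -0.34 to -0.2 in the normals and -0.04 to 0.1 in the tumors. Their level near 0 in the tumors follows from the normalization and from centring each gene over mostly tumor samples, so it is no contrast to the chromosome 13 sets. The normals were therefore low on these genes too, which is the shift that centring on them removes. In the tumors the other genes between the members ran from -0.44 to 0.81, and those of the rest of the chromosome from -0.43 to 0.61. Even in tumor 3, 26 of the 39 members exceeded every normal, and the highest number was 35.

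**Figure D3:**
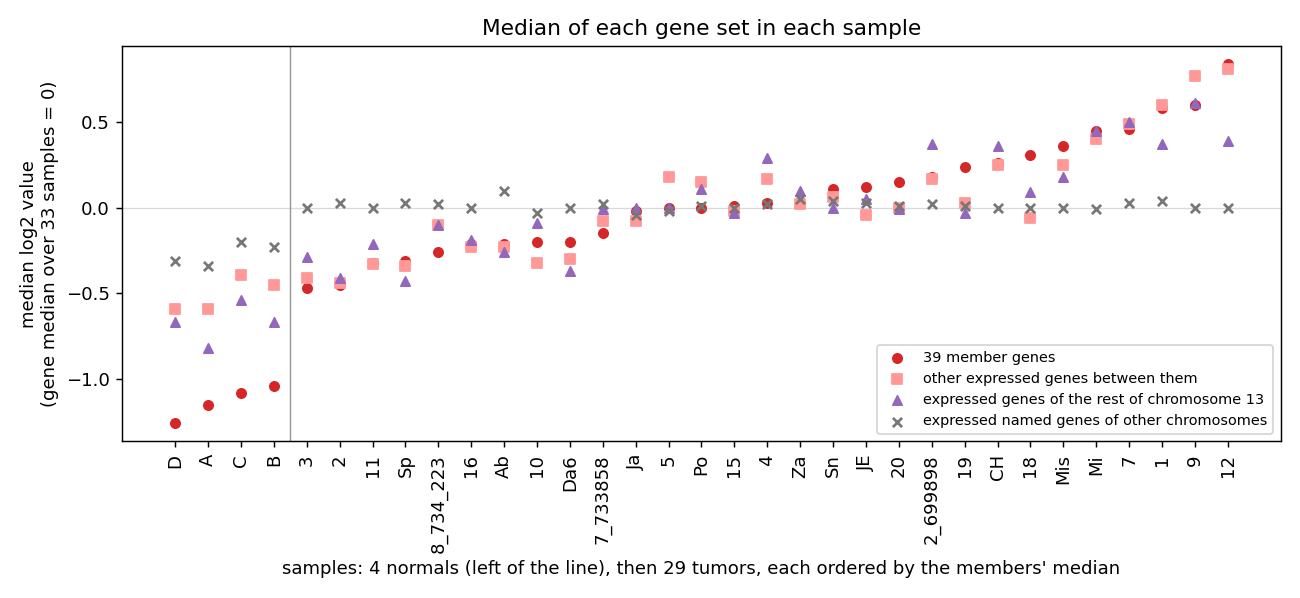
Median log2 value of 4 gene sets in each sample, with the normals left of the line and samples ordered by the members' median. Across the tumors the members run from -0.47 to 0.84, the other genes between them from -0.44 to 0.81 and the rest of the chromosome from -0.43 to 0.61, while the grey crosses, named genes of other chromosomes, stay between -0.04 and 0.1, near 0 as the normalization holds them.

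Members went up and down together across tumors. The median Pearson r over the 741 pairs of members was 0.364 (quartiles 0.125 and 0.546), and 83.7% of pairs were positive. All pairs of placed expressed genes had a median r of 0.000702, and members paired with expressed genes of other chromosomes one of -0.00875. The r values are descriptions over 29 tumors that share libraries and normalization. Without the 2 tumors farthest from the middle of the members' mean, the median r was 0.294.

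Genes on the chromosome that are no members also co-varied, less strongly. Their median r was 0.169 among other genes between the members, 0.196 among genes outside, 0.238 for a member with another gene between them and 0.24 for a member with a gene outside. By its median pairwise r over all expressed named genes, chromosome 13 came second of 26 at 0.198, behind chromosome 19 at 0.213 and ahead of chromosome 16 at 0.129.

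Distance made little difference within the stretch. Members 1 to 10 genes apart had a median r of 0.349 (92 pairs), and those 101 to 196 genes apart one of 0.372 (142 pairs). The highest pair was PUF60 with EXOSC4 at 0.909, followed by TRAPPC9 with SCRIB at 0.9 and SCRIB with HSF1 at 0.875.

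Single members differed in how far they followed the rest. PTK2 (median r with the other 38 members 0.559), DENND3 (0.555) and EIF3H (0.554) followed most closely, and MYC was intermediate at 0.375. KHDRBS3 (-0.181), ASAP1 (-0.0854) and TRPS1 (-0.0376) did not follow, and neither did MTSS1 (0.0366) or ZHX2 (0.0231). None of these 5 rose against the normals. The members with the largest SD over the tumors were KHDRBS3 (2.15), TRPS1 (1.37) and SQLE (1.0), of which SQLE alone followed the others (0.401).

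**Figure D4:**
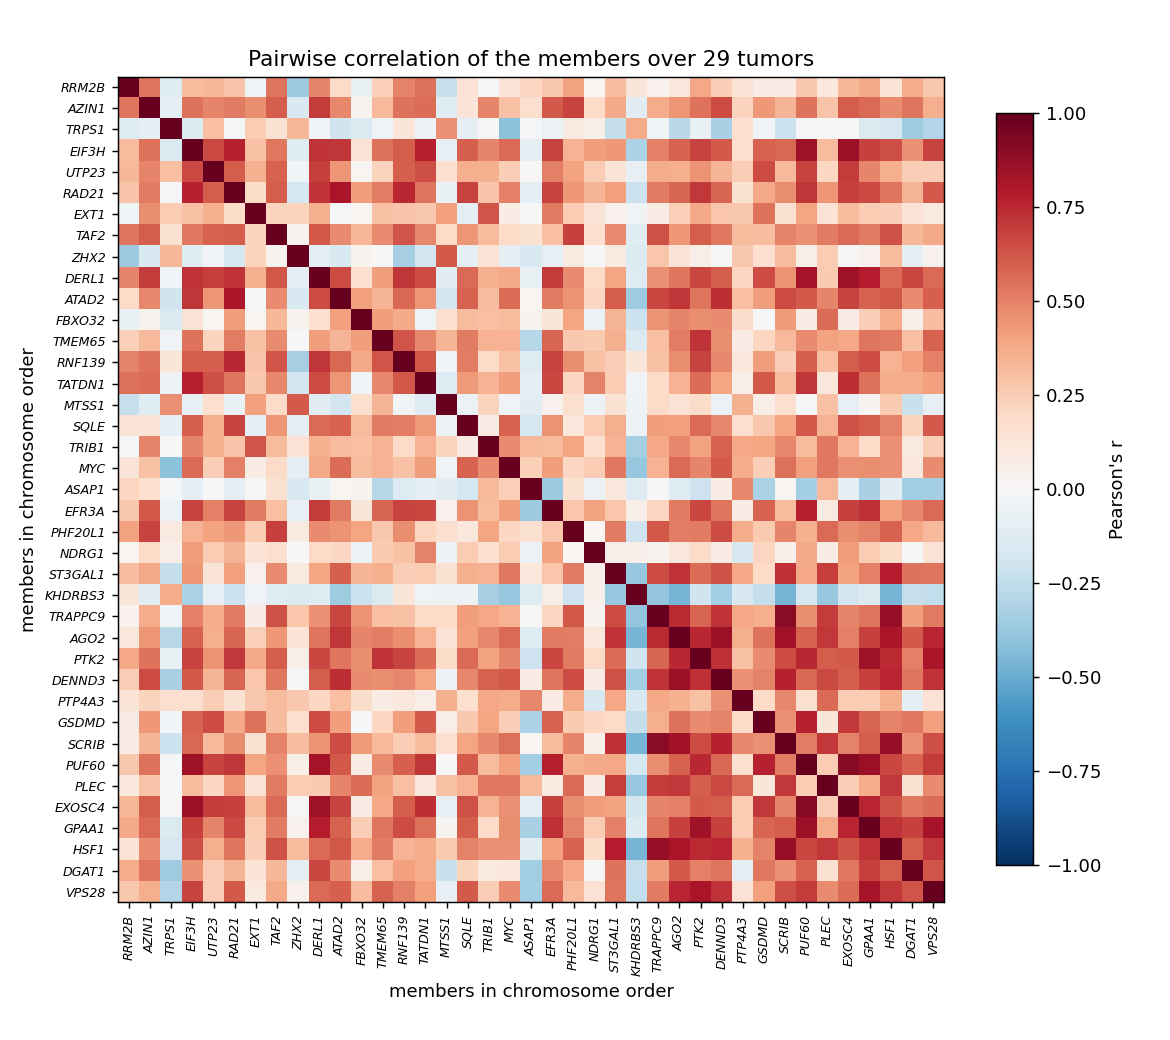
Pearson's r over 29 tumors for each pair of the 39 members, ordered along the chromosome on both axes (red positive, blue negative, scale -1 to 1). Most cells are red, with a dense block from TRAPPC9 to VPS28 that PTP4A3 and some cells of PLEC interrupt. TRPS1, ASAP1 and KHDRBS3 form pale or blue stripes.

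To ask which genes follow a member across the tumors, the slope of every gene on RAD21, from the first part of the stretch, was fitted with limma over the 29 tumors. With RAD21, 98 of 24088 genes rose (0.407%), and 58 of them were on chromosome 13. That was 20.2% of the 287 chromosome 13 genes tested, against 23 of 11338 placed genes of other chromosomes (0.203%). Among the other 38 members, 10 rose (26.3%), and 33 had positive slopes. Of the other chromosome 13 genes, 21 of 104 between the members and 27 of 145 outside rose with RAD21.

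The members closest to RAD21 were ATAD2 (r 0.815, rho 0.876, r 0.841 without the 2 tumors farthest from the RAD21 median), EIF3H (r 0.773, rho 0.784, r 0.749 without them) and RNF139 (r 0.753, rho 0.771, r 0.705 without them). DERL1 (r 0.721, rho 0.746, then 0.719) and PUF60 (r 0.715, rho 0.733, then 0.703) came next. Adjusted p values from limma were 0.000264, 0.00131, 0.00572, 0.0104 and 0.0107, and permutation p values of r were 1e-05 to 2e-05, where 1e-05 is the smallest that 100000 permutations can give.

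RAD21 also followed the proliferation markers (r = 0.647, permutation p = 8e-05, adjusted over 24 relations 0.00192; rho = 0.652, permutation p = 0.00023, adjusted 0.00552; r = 0.728 without the 2 tumors). It fell with the T cell markers (r = -0.49, permutation p = 0.00724, adjusted 0.0434; rho = -0.464, permutation p = 0.0119, adjusted 0.0712; r = -0.487 without the 2 tumors), whose part in the counts was not tested. With the proliferation score as a covariate the counts fell to 3 members, 20 chromosome 13 genes and 27 genes in all.

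PTK2 lies further along the stretch than RAD21. With it, 69 genes rose (0.286%), of which 54 were on chromosome 13 (18.8% of 287) and 3 were placed on other chromosomes (0.0265%). Of the other members, 13 of 38 rose (34.2%) and 35 had positive slopes, and 20 of 104 other genes between the members and 21 of 145 outside rose too.

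GPAA1 (r 0.848, rho 0.828, r 0.799 without the 2 tumors farthest from the PTK2 median), VPS28 (r 0.816, rho 0.758, then 0.732) and AGO2 (r 0.756, rho 0.789, then 0.603) were closest to PTK2. PUF60 (r 0.752, rho 0.769, then 0.696) and HSF1 (r 0.748, rho 0.709, then 0.612) came next. Their adjusted p values from limma were 0.000183, 0.000617, 0.00301, 0.00409 and 0.00301, and permutation p values of r and rho were 1e-05 to 7e-05.

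The PTK2 counts rested on the tumors with the highest PTK2. Without tumor 12 (PTK2 at 1.09) they were 6 members, 29 chromosome 13 genes and 39 in all, and without both tumor 12 and tumor 9 (0.81) they were 2, 12 and 16. Leaving out tumor 7 or 9 alone gave 8 members each, and leaving out tumor 1 gave 34 chromosome 13 genes. With the 3 tumors that had the fewest genes at the lowest value (5, Po and 9) left out, the counts were 8, 33 and 43. The relation of PTK2 with the proliferation markers did not pass the test (r = 0.298, permutation p = 0.114, adjusted 0.305; rho = 0.343, permutation p = 0.0685, adjusted 0.249; r = 0.325 without the 2 tumors), and with that score as a covariate 8 members, 31 chromosome 13 genes and 42 in all rose. Chromosome 13 held most of the genes called with PTK2 in each of these fits.

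In both fits together 82 chromosome 13 genes rose with RAD21 or PTK2, and 30 with both, of 287 tested in each fit. The matching shares over all genes were not computed. Among the members these were 17 and 6, and RAD21 and PTK2 rose with each other (r 0.705, rho 0.713).

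With MYC the members gave no call. Of 24088 genes 15 rose (0.0623%) and 9 fell, 3 of the rising genes were on chromosome 13, and 5 were placed elsewhere (0.0441%). None of the other 38 members passed the adjusted threshold in limma. In the rising direction, 20 of the 38 had an unadjusted p under 0.05, against 1422 of the 24088 genes. Slopes were positive in 34 members. Without tumor 20, the lowest in MYC, SCRIB was called.

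The highest r among the members was that of DENND3 (r 0.615, rho 0.572, r 0.536 without the 2 tumors farthest from the MYC median; adjusted p = 0.0788), and SQLE followed (r 0.589, rho 0.658, then 0.598; adjusted p = 0.0933). The lowest were TRPS1 (-0.41) and KHDRBS3 (-0.381). The named genes most like MYC in the whole table were ZNF250 (r 0.735, rho 0.774) and HGH1 (r 0.733, rho 0.722), both on chromosome 13, then THOP1 (r 0.714, rho 0.719), CDC25A (r 0.697, rho 0.741) and DAPK3 (r 0.694, rho 0.702) on chromosome 20. DAPK3 did not pass the test (adjusted p = 0.0507). MYC rose with the proliferation markers (r = 0.535, permutation p = 0.00286, adjusted 0.0229; rho = 0.545, permutation p = 0.00272, adjusted 0.0326) and fell with the myeloid markers (r = -0.562, permutation p = 0.00162, adjusted 0.0194; rho = -0.5, permutation p = 0.00653, adjusted 0.0522), and r was 0.564 and -0.481 without the 2 tumors. The number of genes rising with MYC is unsteady: leaving out single tumors gave 1 to 32, and 25 of the 29 moved it by more than 1.5 times. The chromosome 13 genes among them numbered 0 to 6 in these fits, where 8 tumors moved the count by that much, and 0 with the proliferation score as a covariate.

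**Figure D5:**
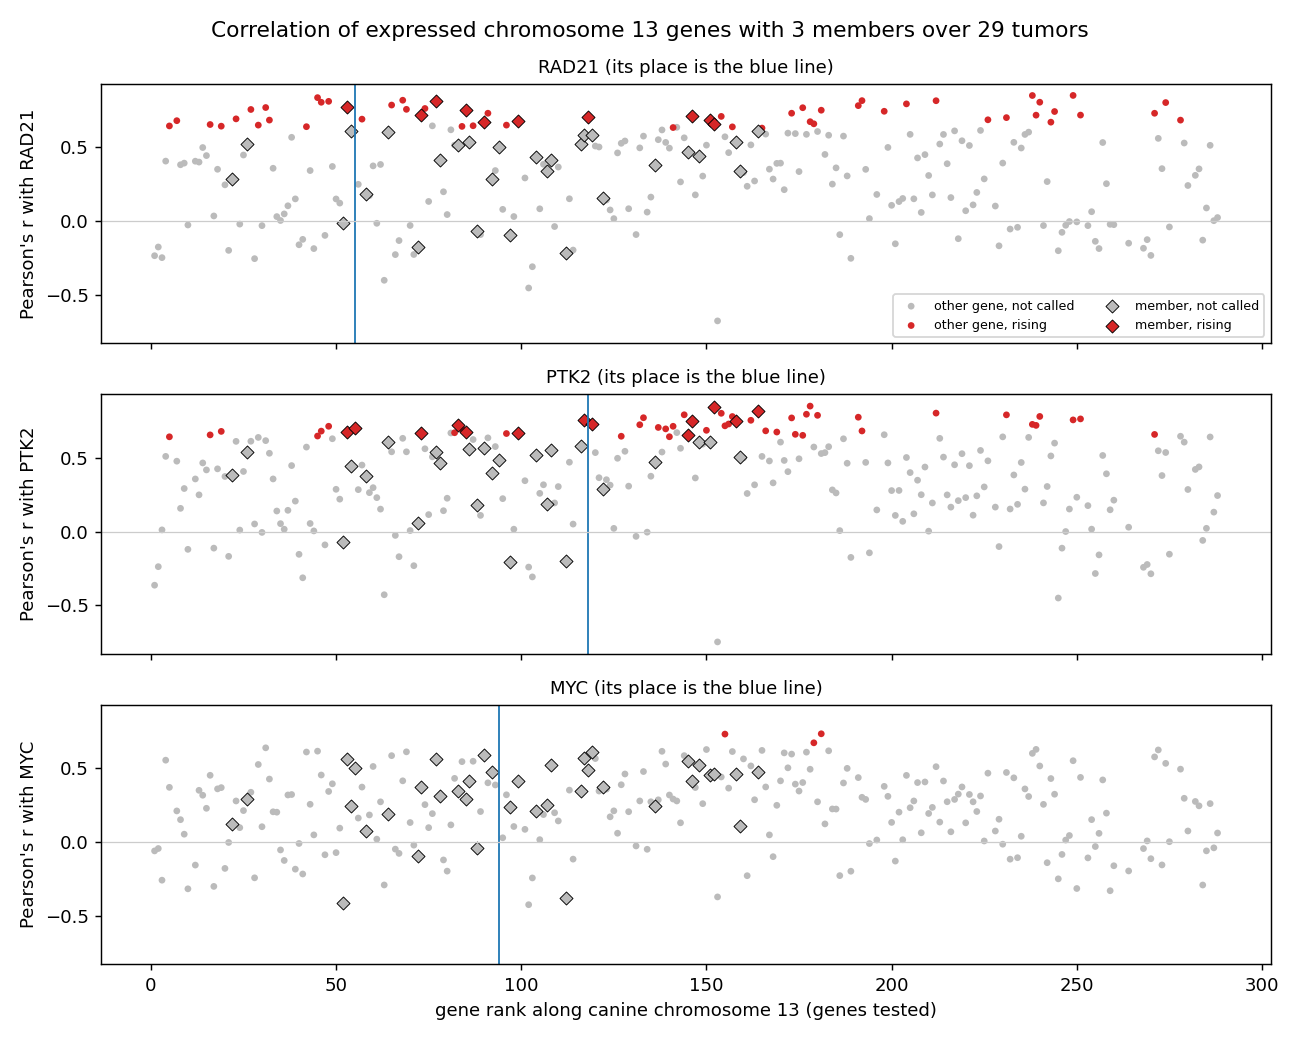
Pearson's r over 29 tumors of each expressed chromosome 13 gene with RAD21, PTK2 and MYC (y axis), by gene rank along the chromosome (x axis); diamonds are members and red marks genes called as rising. Red points for RAD21 and PTK2 lie along most of the chromosome, and for MYC there are 3, none of them a member.

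Genes that work with the members but mostly lie on other chromosomes were compared in the same fit, where 40.7% of the expressed placed genes rose. Of 15 measured MYC targets 14 rose and none fell, led by ODC1, the ornithine decarboxylase of polyamine synthesis, at 2.38 (SE 0.32, adjusted p = 6.87e-08) and BOP1, a ribosome biogenesis factor that itself lies on chromosome 13, at 1.78 (SE 0.27, adjusted p = 5.52e-07). With DESeq normalization and with the centring on named genes 12 rose, and EIF4A1 and NCL were no longer called. The remaining target, NPM1, differed by 0.41 (adjusted p = 0.231). Their median r with MYC over the tumors was 0.39, and none was called as rising with it.

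Of 8 genes of the MYC network 5 rose and none fell. The list holds genes of its dimerization network and FBXW7, a ubiquitin ligase gene, which was not called. MXD1 at 2.12 (SE 0.39) and MXD3 at 1.81 (SE 0.34), both antagonists of MYC, rose most. In those other scalings 4 rose, without MNT. Of 12 listed cohesin subunits and regulators other than RAD21, 9 were measured, and SMC1A, SMC3 and STAG2 were not. Of these 9, 7 rose and none fell. In the DESeq-normalized table and with the centring on named genes 5 rose, without WAPL and STAG1, and 1, REC8, fell. ESCO2, which acetylates cohesin in S phase, differed by 2.04 (SE 0.41) and MAU2, of the loader, by 1.07 (SE 0.14).

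The eIF3 partners of EIF3H were mostly not called: 2 of 9 rose, EIF3B at 1.23 (SE 0.17) and EIF3E, also on chromosome 13, at 0.69 (SE 0.31, adjusted p = 0.0446), and EIF3G fell by 0.41 (SE 0.18, adjusted p = 0.0436). The uncalled partners ranged from -0.03 (EIF3F) to 0.52 (EIF3I). In both of those other scalings EIF3B alone rose, and the fall of EIF3G was not called in values centred off chromosome 13. Focal adhesion partners of PTK2 went both ways, with 4 of 11 higher and 3 lower, a share of rises near that of the expressed placed genes. In both other scalings 4 were lower, PXN among them, and 3 and 4 were higher. VCL, the actin linker vinculin, which smooth muscle also expresses, fell by 1.88 (SE 0.26), and PTK2B, the kinase most like PTK2, rose by 1.67 (SE 0.31).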

How the data were processed

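RNA-seq libraries (Ribo-Zero, ScriptSeq v2, HiSeq 4000) of 29 tumors and 4 normals were aligned by the authors to CanFam 3.1 with COBWeb in Strand NGS 3.1. The authors deposited log2 values, normalized by TMM and by DESeq, minus each gene's median over the 33 samples. The last line of each table analysed here was incomplete and was dropped, and total counts cannot be read from them. Because the values are on the log2 scale, the count tests of the study were replaced by limma 3.58.1 in R 4.3.3 (mean-variance trend, Benjamini-Hochberg). Genes above their shared lowest value in at least 4 samples were tested, 24471 in all, and scripts were checked on simulated data. A filter on the median selects against genes that fell, since most samples are tumors.

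Of 12202 genes with a symbol 11744 were placed by the RefSeq table. Slopes on RAD21, PTK2 and MYC used the tumors only. The covariates are mean z scores of marker lists. Permutation p values are two-sided. Members and lists were chosen with earlier results of these data known. Genes given in full are MYC, RAD21, PTK2, the 8 largest rises and up to 6 largest falls among called members, the 3 largest tumor SDs, the 5 called members with the largest r for RAD21 and PTK2, the 5 genes most like MYC, the 3 largest rises and falls of other chromosome 13 genes, and the 2 largest changes of each partner list. No pair of samples was a duplicate (highest r 0.942). Python 3.11.15, numpy 2.4.6, pandas 2.3.3, scipy 1.17.1 and matplotlib 3.10.9 were used.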

Additional observations from a re-analysis of the deposited data

Results flagged for a closer look

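In 5 of the 39 members, 1 normal lay far from the other 3 by Dixon's test, which chance alone flags in about 1 of 20 independent groups. The members share the same 4 normals, so they need not be independent, and no share over all genes was computed. RNF139 was -0.56 in normal A and -0.94 to -0.91 in the others, and MTSS1 was -0.59 in normal A and -0.24 to -0.22 in the others. KHDRBS3 was 3.98 in normal A and 4.41 to 4.44 in the others. ST3GAL1 was -2.24 in normal D against -1.54 to -1.41, and VPS28 was -1.48 in normal D against -1.14 to -1.1.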

How the results depend on the processing

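Of 468 recomputed differences of single members, 453 kept their direction and their side of the threshold. PTP4A3, at 0.28 and not called, turned to -0.02 in the DESeq-normalized table, to -0.01 in values centred on named genes of other chromosomes and to -0.05 without normal A, with a range of -0.05 to 0.52 over the normals left out in turn. The members called lower numbered 2 in both of those scalings, and their median difference was 0.95 and 0.96; across the normals left out, the filters, the trend and the weights, 29 or 30 were called higher. Genes rising with MYC numbered 2 with the proliferation score as a covariate and 2 without the 2 tumors farthest from its median, 23 in values centred off chromosome 13, and 34 without the 3 tumors with fewest genes at the lowest value. On chromosome 13 there were 0 with that covariate and 1 without the 2 tumors. The proliferation covariate left 3 members, 20 chromosome 13 genes and 27 genes rising with RAD21, and 8, 31 and 42 with PTK2. Without the 2 tumors farthest from the PTK2 median these were 2, 12 and 16, and without the 3 tumors 8, 33 and 43. Leaving out each tumor in turn gave 6 to 14 members, 29 to 59 chromosome 13 genes and 39 to 75 genes with PTK2, 0 to 1, 0 to 6 and 1 to 32 with MYC, and 8 to 11, 40 to 58 and 68 to 124 with RAD21. The cause of these changes was not tested. The centring on named genes, the 3 tumors and the single tumors left out were chosen after seeing the data. No paired analysis was possible because normals and tumors share no replicate numbers and come from different dogs. The read total of each sample is not in the tables, so no limit per sample can be given, and 4 normals limit the precision.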
